A study of Mus musculus with 5 samples.

Results

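The genes of cholesterol and fatty acid synthesis were followed in RNA-Seq data from BrafV600E-driven mouse thyroid cancer cell lines. The list held 30 genes, given by name, with no threshold on their values and with earlier results of these data known: 18 enzymes of sterol synthesis, 5 regulators of the sterol response, 1 sterol carrier and 6 enzymes of fatty acid synthesis. Each was found by the symbol of its NCBI gene number. All 30 were listed in every library, of 17923 genes listed in at least 1 library, and all 30 passed the filter on low counts that left 13240 genes for testing. The lowest estimated count of a listed gene in any library was 15.

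The series compared BVE-Ctnnb1wt cells, in which the thyroid tumor carried BrafV600E alone (2 libraries), with BVE-Ctnnb1null cells, which carried BrafV600E and a deletion of Ctnnb1, the gene of β-catenin (3 libraries). Both groups were continuous lines grown from thyroid tumors of donor mice in DMEM/F12 with fetal bovine serum. The age, sex and strain of the mice and the promoter that drove recombination were not given in the sources used here. Both wt libraries came from a line labelled BVE at passage 20, wt 1 without and wt 2 with thyroid-stimulating hormone (TSH). The null libraries carried the line names BVECTN_4 (null 1, passage 8, without TSH), BVECTN_4A (null 2, passage 11) and BVECTN_5 (null 3, passage 7), and the labels of null 2 and null 3 do not mention TSH. The growth protocol differs from these labels, since it counts about 25 passages for BVE-Ctnnb1wt, about 20 for BVE-Ctnnb1null and 4 mU/mL bovine TSH in the medium of all cells. Effects of line, passage, TSH and genotype cannot be told apart here. The study describes its RNA-Seq samples as biological replicates, in a number per group that the labels bear out for the null but not for the wt libraries. The labels name no separate animals, and both wt libraries share a line name and passage but differ in the TSH label. The p-values thus measure the spread between these libraries. For the wt pair that spread holds the labelled TSH difference and may otherwise be technical. Estimated counts summed to 30432737 and 30713079 in wt 1 and wt 2. They summed to 29929677, 29360002 and 29415980 in null 1, null 2 and null 3.

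Cholesterol is built from acetyl-CoA by way of HMG-CoA, mevalonate, farnesyl diphosphate, squalene and lanosterol, and the farnesyl branch point also feeds protein prenylation, dolichol and ubiquinone. Fatty acids are built from the same cytosolic acetyl-CoA by carboxylation, chain synthesis, elongation and desaturation. Transcription of both pathways is driven by SREBP factors, membrane proteins of the endoplasmic reticulum that are escorted to the Golgi by SCAP and cut there when sterols are low, and held back by INSIG proteins when sterols are high. SREBP-2, from Srebf2, acts mainly on sterol genes and SREBP-1, from Srebf1, mainly on fatty acid genes. In thyroid follicular cells TSH acts through its receptor and cyclic AMP, and cholesterol and fatty acids supply membranes in any dividing cell.

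Promoter sequence is shown for 4 of the listed genes, because the sterol response acts through short elements near the start of transcription. RefSeq promoter windows of GRCm38.p6 were found for 24 of the 30 genes, as 32 windows of 250 bases upstream of a start. The genes without a window were Fdft1, Fdps, Scd1, Scd2, Sqle and Stard4. Letters were searched on both strands. TCACNCCA, the core of the sterol regulatory element, was in 3 of the 32 windows (9.38%). It was in 3.67% of all 32851 windows and in 3.42% of the windows of genes listed in these libraries. The 3 genes were Hmgcs1 (chr13:119690171-119690350, plus strand), Srebf2 (chr15:82147089-82147268, plus strand) and Msmo1 (chr8:64733579-64733758, minus strand), and Fasn (chr11:120824548-120824727, minus strand) is shown beside them for the fatty acid branch. The 180 bases just upstream of each start are printed 5′ to 3′ on the strand of the gene, with capitals for TCACNCCA and for CCAAT, the letters read by NF-Y, on either strand.
Hmgcs1: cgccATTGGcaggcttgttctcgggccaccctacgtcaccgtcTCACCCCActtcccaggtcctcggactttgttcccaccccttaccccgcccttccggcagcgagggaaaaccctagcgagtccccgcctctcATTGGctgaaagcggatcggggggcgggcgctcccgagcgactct
Srebf2: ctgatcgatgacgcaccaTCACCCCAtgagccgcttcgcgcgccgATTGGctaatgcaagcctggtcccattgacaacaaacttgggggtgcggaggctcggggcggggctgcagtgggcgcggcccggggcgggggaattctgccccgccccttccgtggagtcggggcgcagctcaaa
Msmo1: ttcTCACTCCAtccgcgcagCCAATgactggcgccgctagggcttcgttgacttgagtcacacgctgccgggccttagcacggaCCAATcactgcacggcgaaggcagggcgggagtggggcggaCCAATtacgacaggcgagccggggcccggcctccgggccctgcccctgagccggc
Fasn: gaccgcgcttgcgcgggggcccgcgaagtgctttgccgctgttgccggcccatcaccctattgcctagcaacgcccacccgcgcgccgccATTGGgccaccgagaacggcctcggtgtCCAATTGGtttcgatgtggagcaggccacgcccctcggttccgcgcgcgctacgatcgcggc
In these windows the TCACNCCA match began 137 bases before the start in Hmgcs1, 162 bases before it in Srebf2 and 177 bases before it in Msmo1, while Fasn had none. CCAAT was in 20 of the 32 windows (62.5%), against 33.8% of all windows and 35.1% of the windows of genes listed in these libraries. GGGCGG, the letters read by Sp1, was in 23 (71.9%), against 32.7% of all windows and 51.1% of the windows of genes listed in these libraries. CACGTG, the E-box, was in 5 (15.6%), against 6.02% of all windows and 7.64% of the windows of genes listed in these libraries. TGACGTCA, the full form of the cyclic AMP response element, was in 0 of the 32. It was in 1.55% of all windows and 2.28% of the windows of genes listed in these libraries. At so low a share a count of 0 says little, and shorter forms were not searched. TCACNCCAC, which extends TCACNCCA by a letter, was in 1 window (3.12%, against 1.05% and 1.05% in the same order). CACCCCAC, which can overlap it, was in 2 windows (6.25%, against 2.58% and 2.91%). A match describes letters in a window and is not a binding site.

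The targeted gene was examined first. Ctnnb1 had an FPKM (fragments scaled to transcript length and to the mapped reads of the library) of 59.3 in wt 1 and 73.8 in wt 2, and of 125, 196 and 118 in null 1, null 2 and null 3. The RNA was therefore not lower in the libraries labelled null, and in FPKM each of them was above both wt libraries. The fitted log2 fold change was 0.55 (SE 0.44, edgeR's adjusted p = 0.517). Reads from exons outside a deleted stretch still count towards the gene and the deleted exons are not given in the sources used here, so the value neither shows nor denies the deletion, and null is used below as the label of these libraries only.

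The libraries also differed in markers of cell type. In a tumor-derived culture, fewer cells of a type and less RNA per cell cannot be told apart. Of 10 thyroid follicular markers, 4 passed the filter. Tshr, the TSH receptor, was at an FPKM of 0.11 or less in every library. Tg, thyroglobulin, was highest in wt 2 at an FPKM of 0.86, and Foxe1, Duox2, Dio1 and Slc26a4 were at 0.12 or less. Slc5a5, the iodide transporter, was at 6.48 in null 1 and at 1.03 or less elsewhere. Nkx2-1, a thyroid transcription factor, was at an FPKM of 9.21, 15.02, 9.26, 34.8 and 0.26 in wt 1, wt 2, null 1, null 2 and null 3, so it was near 0 in null 3 alone. Pax8, its partner, was at 0.40 and 0.17 in the wt and at 18.2, 12.8 and 2.56 in the null libraries. Levels of these markers thus differed between libraries, and what they mean for the identity of the cells was not tested.

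All 8 epithelial markers were highest in null 1, where Krt7, the most abundant, had an FPKM of 5131, and their summed FPKM was 1098, 1774, 13359, 706 and 1416 in wt 1, wt 2, null 1, null 2 and null 3. In null 3, 6 of the 8 were at least 2-fold above the wt mean on log2(FPKM + 0.1) and 1 at least 2-fold below (median 2.13). The shares of all genes tested were 41.9% and 8.81%. In null 2, 0 were above and 6 below by that margin (median -3.04), beside 39.5% and 10.1% of all genes. Epcam and Cdh1 were at an FPKM of 5.04 and 1.94 in wt 1, at 152 and 136 in null 1, and were not listed in null 2. The summed FPKM of 8 fibroblast markers, led by Col1a1, was 290.0, 255, 1.57, 148 and 1312, and Dcn and Thy1 were above 1 in null 3 only, at 84.7 and 88.5. Of 8 adipocyte markers 6 were listed. Their summed FPKM was 455 in null 3 and at most 8.72 elsewhere, almost all from Fabp4, at 438, while Adipoq and Plin1 were at 0.03 or less. Pparg, the nuclear receptor of fat cells, was at 0.76, 1.30, 8.60, 4.85 and 16.8, with every null above both wt libraries. Of 8 leukocyte markers 5 were listed, led by Cd68 at 59.8 in null 1 and 39.9 in null 3, with Tyrobp and Itgam at 0.06 or less. Endothelial markers summed to 0.68 or less. These differences run between the null libraries as well as between the groups, and their part in the results below was not tested.

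**Figure D1:**
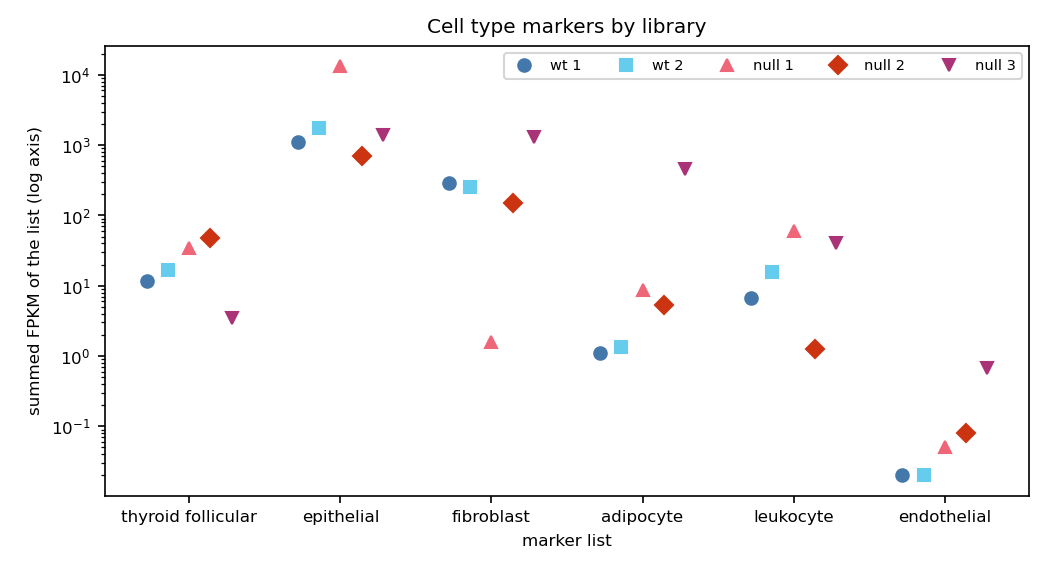
Summed FPKM of each list of cell type markers (horizontal axis) on a log axis, with 1 point per library. Null 1 lies highest for epithelial markers, at 13359, and lowest for fibroblast markers, at 1.57, while null 3 lies highest for fibroblast (1312) and adipocyte (455) markers.

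The comparison of null with wt libraries asked whether the listed genes differed with the Ctnnb1 label. None of the 30 passed edgeR's quasi-likelihood test after Benjamini-Hochberg adjustment over all 13240 genes, and the share of all genes called was 0% higher and 0% lower. The lowest adjusted p among the listed genes was 0.191, for Elovl6, and 0.0845 among all genes. At an unadjusted p under 0.05 in the same test, Hsd17b7 and Elovl6 were higher in null (2 of 30, against 12.4% of all genes) and Pmvk was lower (1 of 30, against 6.07%). The fitted log2 fold change was above 0 for 17 and below 0 for 13 of the 30 genes. Their median was 0.27, and the median of all genes tested was 0.29. Without wt 1 the median of the listed genes was -0.036 and that of all genes 0.38, and without null 1 they were -0.073 and 0.14. On log2(FPKM + 0.1), which applies no TMM factors, 26 of the 30 were above 0 in limma's fit, with a median of 0.79 beside 0.61 over all genes, and none passed.

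**Figure D2:**
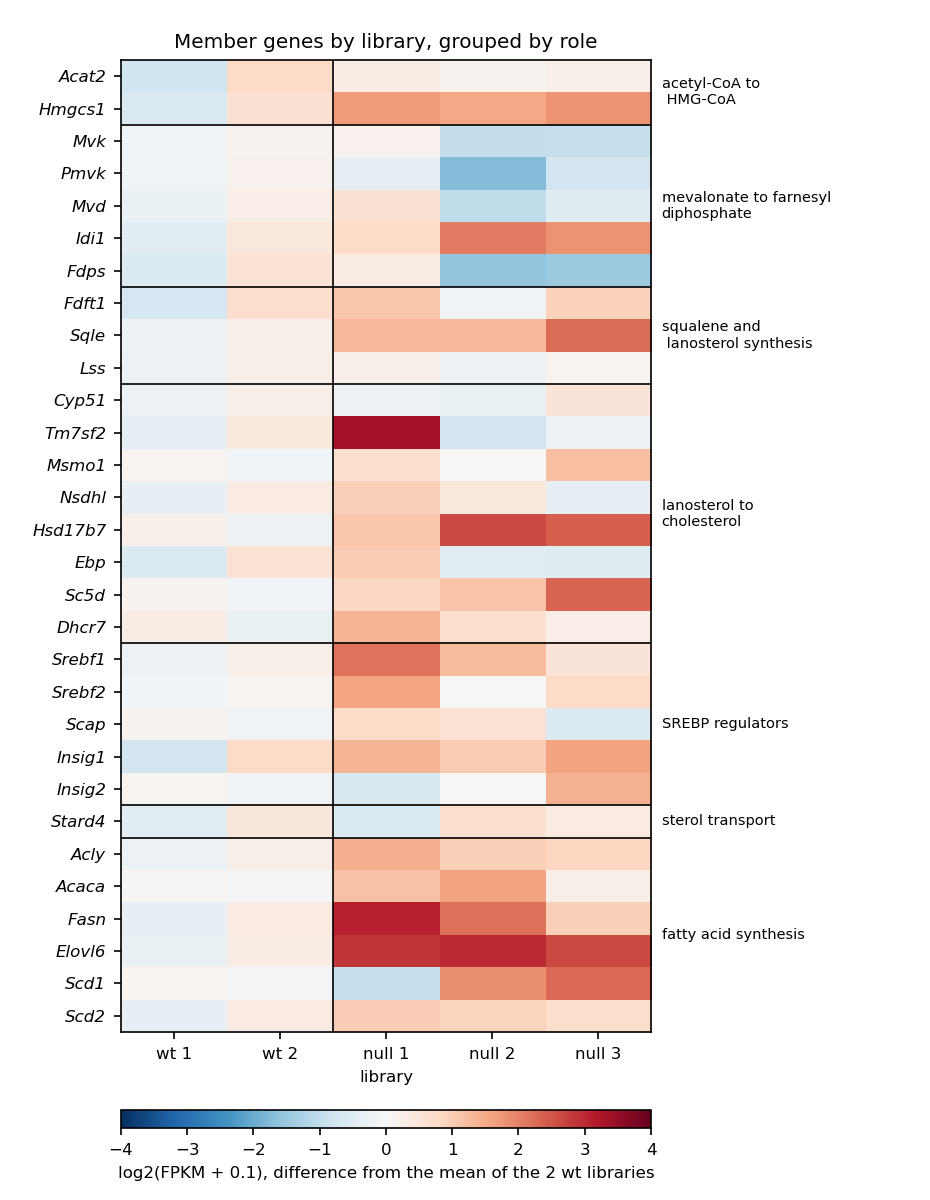
Each cell gives log2(FPKM + 0.1) of a gene in a library minus the mean of the 2 wt libraries, with rows grouped by role. The fatty acid rows Fasn and Elovl6 are high in all 3 null libraries, while Fdps is low in null 2 and null 3 (65.2 and 69.1 FPKM) and not in null 1 (237 FPKM).

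All 3 null libraries were above both wt libraries, in FPKM and in CPM after TMM scaling (counts scaled to the library total, with edgeR's normalization factors), for 5 of the 30 genes: Hmgcs1, Sqle, Hsd17b7, Sc5d and Elovl6. This share (16.7%) was under the 22.5% of all genes tested. Pmvk, as 1 of the 30 genes, was lower in each null library than in either wt library (3.33%, against 7.22% of all genes). For the other 24 genes the groups overlapped in FPKM, in TMM CPM or in both. In FPKM alone, without the TMM factors of between 0.735 and 0.842 in the wt and between 1.08 and 1.22 in the null libraries, 7 more genes (Idi1, Srebf1, Insig1, Acly, Acaca, Fasn and Scd2) lay above, 12 of 30 in all, against 35.9% of all genes. Pmvk alone lay below in FPKM, against 7.22% of all genes. In TMM CPM alone 2 genes lay below, Pmvk and Mvk, and the share of all genes was not counted in that unit. Mvk was at 49.8 and 69.1 in wt 1 and wt 2 and at 48.0, 19.2 and 20.0 in the null libraries. With 2 against 3 libraries the exact two-sided permutation test of a single gene cannot give a p under 0.1, so no such test could reach 0.05. Without wt 2, 12 genes lay above in both units (28.3% of all genes), and without null 3, 9 did (28.1%). Without wt 1 or null 1, 4 lay below (9.94% and 12.8% of all genes).

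**Figure D3:**
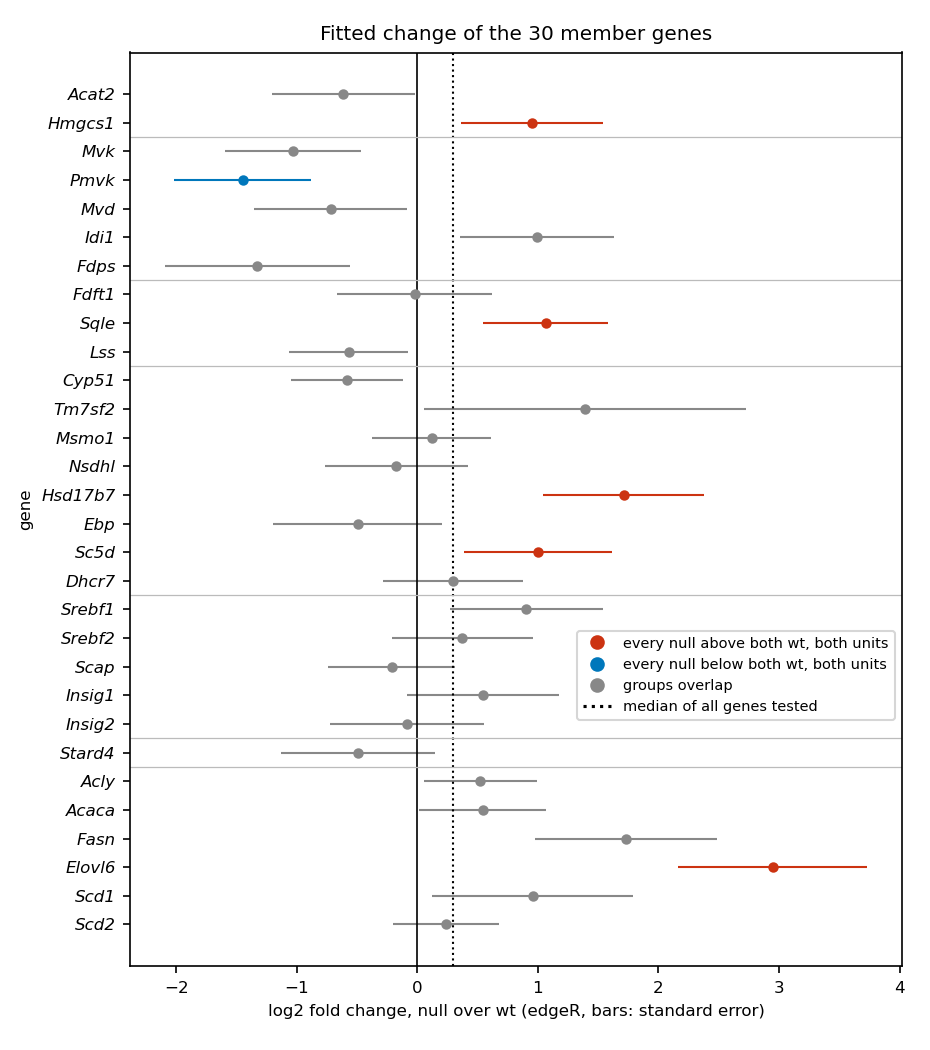
Fitted log2 fold change, null over wt, of the 30 genes in pathway order, with bars of 1 standard error from edgeR and a dotted line at 0.29, the median of all genes tested. The 5 red genes lay above and the blue gene below both wt libraries in every null library, in FPKM and in TMM CPM.

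The entry steps from acetyl-CoA to HMG-CoA gave fitted values of opposite sign, -0.61 for Acat2 and 0.95 for Hmgcs1, though both were above 0 on log2(FPKM + 0.1). Acat2, the cytosolic thiolase that joins acetyl-CoA units, was the more abundant, with an FPKM of 9.62 in wt 1, 29.1 in wt 2, 20.8 in null 1, 18.5 in null 2 and 19.5 in null 3. The wt libraries thus lay on either side of all 3 null libraries, and the null libraries were close to each other. Hmgcs1, the cytosolic HMG-CoA synthase, had an FPKM of 1.89 in wt 1, 4.58 in wt 2 and of 9.74, 8.82 and 10.4 in null 1, null 2 and null 3. Its mean FPKM was 3.24 ± 1.90 (SD, n = 2) in wt and 9.65 ± 0.794 (SD, n = 3) in null libraries, and the groups did not overlap. The fitted log2 fold change of Hmgcs1 was 0.95 (SE 0.59), and edgeR's adjusted p was 0.410. It was 0.32 without wt 1 and 1.78 without wt 2. Reads of Acat2 can be shared with its close copy Acat3, whose FPKM was at most 1.22.

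From mevalonate to farnesyl diphosphate, 4 of the 5 enzymes had values below 0, with a median log2 fold change of -1.03 (-0.56 and also 4 of 5 on log2(FPKM + 0.1)). Pmvk, which phosphorylates phosphomevalonate, had an FPKM of 26.8 in wt 1, 34.0 in wt 2 and of 23.0, 9.05 and 17.8 in null 1, null 2 and null 3. Each null library lay under both wt values, null 1 by the least. The fitted log2 fold change of Pmvk was -1.45 (SE 0.57), with an edgeR adjusted p of 0.253. Fdps, the farnesyl diphosphate synthase and the most abundant gene of the list, had an FPKM of 132 in wt 1, 287 in wt 2 and of 237, 65.2 and 69.1 in null 1, null 2 and null 3. Null 2 and null 3 lay below both wt libraries, but null 1 lay between them, so the groups overlapped (log2 fold change -1.33, SE 0.76, edgeR's adjusted p = 0.385). The value of Fdps was -2.35 without null 1, -1.93 without wt 1 and -0.63 without wt 2. Mvk, the mevalonate kinase, and Mvd, which decarboxylates mevalonate diphosphate, had values of -1.03 and -0.72, and of -1.64 and -1.45 without null 1. Idi1, the isomerase that makes dimethylallyl diphosphate, was the only one of the 5 above 0, at 0.99, with an FPKM of 1.62 in wt 1, 2.98 in wt 2 and of 3.74, 9.70 and 7.96 in null libraries. The value of Idi1 was 0.48 without wt 1, 0.65 without null 2 and 1.54 without wt 2. Neighbours in the chain thus differed in direction, and none passed the test.

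Among the enzymes of squalene and lanosterol synthesis, Fdft1, the squalene synthase, was the most abundant, with an FPKM of 13.7 in wt 1, 34.7 in wt 2, 47.7 in null 1, 19.7 in null 2 and 41.7 in null 3. Its groups overlapped, and the fitted log2 fold change was -0.02 (SE 0.64). The value of Fdft1 was -0.67 without wt 1, 0.85 without wt 2 and 0.64 on log2(FPKM + 0.1). Sqle, the squalene epoxidase and a control step of the pathway, had an FPKM of 5.94 in wt 1, 7.90 in wt 2 and of 16.9, 17.2 and 32.3 in the null libraries. All null libraries lay above the wt libraries, and null 3 was the highest. The mean FPKM of Sqle was 6.92 ± 1.39 (SD, n = 2) in wt and 22.1 ± 8.81 (SD, n = 3) in null libraries, with a log2 fold change of 1.07 (SE 0.52, edgeR's adjusted p = 0.312). Lss, the lanosterol synthase, stayed between an FPKM of 4.27 and 5.85 in all 5 libraries. In TMM CPM it ran from 11.5 in null 2 to 25.8 in wt 2. The log2 fold change of Lss was -0.57 (SE 0.49), and 0.033 on log2(FPKM + 0.1).

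The 8 enzymes from lanosterol to cholesterol had a median log2 fold change of 0.21, with 5 above and 3 below 0 (all 8 above on log2(FPKM + 0.1)). Ebp, the sterol isomerase, was the most abundant of them, with an FPKM of 24.4 in wt 1, 54.5 in wt 2 and of 73.1, 26.4 and 26.2 in null 1, null 2 and null 3. Its groups overlapped, and in FPKM null 1 was the highest and null 2 and null 3 were near wt 1. Hsd17b7, the keto reductase that completes the removal of the methyl groups, had an FPKM of 0.83 in wt 1, 0.61 in wt 2 and of 1.67, 4.94 and 4.16 in the null libraries. Null 1 was the lowest of the null libraries and still above both wt libraries. The log2 fold change of Hsd17b7 was 1.71 (SE 0.67), with an edgeR adjusted p of 0.250. Sc5d, the desaturase that acts on lathosterol, had an FPKM of 3.76 in wt 1, 3.07 in wt 2 and of 6.11, 7.64 and 17.4 in null 1, null 2 and null 3. Null 3 stood above the others, and the groups did not overlap (log2 fold change 1.00, SE 0.61, edgeR's adjusted p = 0.407), with 0.40 without null 3. The other 5 were Cyp51 (lanosterol demethylase), Msmo1 (methylsterol oxidase), Nsdhl (decarboxylating dehydrogenase), Dhcr7 (reductase of the last step of one branch) and Tm7sf2 (sterol reductase). Their log2 fold changes lay between -0.58 for Cyp51 and 1.39 for Tm7sf2. The value of Tm7sf2 came from 1 library, chosen here after its values were seen: its FPKM was 48.0 in null 1 and between 2.76 and 6.18 in the other 4 libraries, and without null 1 the log2 fold change was -1.22.

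The regulators of the sterol response overlapped between the groups in TMM CPM, and none passed the test. Fitted values were above 0 for 3 of the 5, and for all 5 on log2(FPKM + 0.1). Srebf2 had an FPKM of 24.2 in wt 1, 27.6 in wt 2 and of 76.6, 26.3 and 45.3 in null 1, null 2 and null 3. In FPKM null 2 lay between the wt libraries, in TMM CPM it (99.7) was under both (134 and 175), and null 1 was the highest in either unit. Its log2 fold change was 0.37 (SE 0.58, edgeR's adjusted p = 0.751), and -0.22 without null 1. Srebf1 had an FPKM of 6.95 in wt 1, 9.49 in wt 2 and of 36.9, 19.7 and 11.8 in the null libraries. In FPKM each null library was above both wt libraries, and in TMM CPM null 3 (42.2) was under wt 2 (56.7). The log2 fold change of Srebf1 was 0.91 (SE 0.63, edgeR's adjusted p = 0.462), and it was 0.25 without null 1. The FPKM of Srebf1 over that of Srebf2 was 0.288 and 0.344 in the wt and 0.482, 0.750 and 0.259 in null 1, null 2 and null 3, so null 2 had the highest and null 3 the lowest ratio. Srebf1 was listed as a single transcript, and the forms of SREBP-1 could not be separated.

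Scap, the escort of SREBP to the Golgi, had an FPKM of 17.1 in wt 1, 13.8 in wt 2 and of 25.6, 22.9 and 10.4 in the null libraries. Null 3 was below both wt libraries in either unit, while null 2 was above both in FPKM and below both in TMM CPM (79.0 against 86.2 and 80.1). Insig1, a retention protein and itself a sterol-responsive gene, had an FPKM of 3.14 in wt 1, 9.14 in wt 2, 14.1 in null 1, 10.9 in null 2 and 16.7 in null 3. In FPKM all null libraries were above wt 2, and in TMM CPM null 2 (23.9) was under wt 2 (33.7). Insig2, its relative, had an FPKM of 16.4 in wt 1, 13.95 in wt 2 and of 9.68, 15.04 and 41.0 in null 1, null 2 and null 3. Null 1 was the lowest and null 3 the highest of the 5 libraries. The fitted log2 fold changes were -0.21 for Scap, 0.55 for Insig1 and -0.08 for Insig2. Insig1 was at -0.15 without wt 1 and at 1.58 without wt 2. Scap was at -0.55 without null 1 and at 0.056 without null 3, and Insig2 at 0.20 and -0.90. Stard4, a cytosolic sterol carrier, had an FPKM of 2.09 in wt 1, 3.98 in wt 2 and of 1.92, 4.55 and 3.62 in the null libraries, and its groups overlapped (log2 fold change -0.49, SE 0.64).

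All 6 enzymes of fatty acid synthesis had a log2 fold change above 0, with a median of 0.75, beside 59.3% of all genes tested above 0 and their median of 0.29. All 6 were also above 0 on log2(FPKM + 0.1), with a median of 1.08, and none passed the test in either fit. Scd2 was below 0 (-0.20) without wt 1, and Scd1 (-0.085) with the replicate number as a block. Elovl6, which elongates palmitate to stearate, had the lowest level of the list, with an FPKM of 0.08 in wt 1, 0.17 in wt 2, 1.51 in null 1, 1.63 in null 2 and 1.26 in null 3. The wt values rested on 15 and 31 estimated counts, and the null libraries lay close together above both. Its mean FPKM was 0.125 ± 0.0636 (SD, n = 2) in wt and 1.47 ± 0.189 (SD, n = 3) in null libraries, 11.7-fold higher. The log2 fold change of Elovl6 was 2.95 (SE 0.78, edgeR's adjusted p = 0.191), and it was 3.59 without wt 2, 2.38 without wt 1 and 1.13 in limma's fit on log2(FPKM + 1), where the added 1 exceeds the wt levels. With DESeq2 in place of edgeR it was 2.86 and passed, at an adjusted p of 0.00194, the only listed gene to do so with that tool, while DESeq2 called 8.41% of all genes higher and 3.68% lower. Over the other alternatives, fitted with edgeR or limma, the adjusted p of Elovl6 lay between 0.105 and 0.841.

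Scd2, a stearoyl-CoA desaturase that puts the double bond into stearate and palmitate, was the most abundant fatty acid gene, with an FPKM of 37.9 in wt 1, 58.8 in wt 2 and of 94.5, 88.6 and 76.8 in null 1, null 2 and null 3. The groups were apart in FPKM but not in TMM CPM, where null 2 (401) and null 3 (350) were under wt 2 (446), and the log2 fold change was 0.24 (SE 0.44). Scd1, its close paralog, had an FPKM of 9.49 in wt 1, 8.47 in wt 2 and of 4.71, 32.9 and 43.2 in the null libraries. Null 1 was the lowest and null 2 and null 3 the highest of the 5 (log2 fold change 0.96, SE 0.83). Scd1 made up 20.0% and 12.6% of the FPKM of the pair in wt 1 and wt 2, and 4.75%, 27.1% and 36.0% in null 1, null 2 and null 3. Reads of such paralogs can be split between them by the counting, and the estimated counts of both were not whole numbers. For the remaining 3 enzymes, Fasn was singled out after its values were seen. Fasn, the fatty acid synthase, had an FPKM of 3.71 in wt 1, 5.98 in wt 2 and of 40.4, 22.1 and 9.14 in null 1, null 2 and null 3, and in TMM CPM null 3 (76.3) was under wt 2 (82.9). Its log2 fold change was 1.73 (SE 0.75, edgeR's adjusted p = 0.278), and it was 1.00 without null 1. Acly, which makes cytosolic acetyl-CoA from citrate, and Acaca, which carboxylates it to malonyl-CoA, had values of 0.52 and 0.54. With a library left out, Acly lay between 0.16 and 0.78 and Acaca between 0.17 and 0.81. Of 2 transcripts listed for Acly, the minor one in wt took 22.5% and 29.1% of its FPKM in wt 1 and wt 2, and 54.7%, 34.2% and 23.4% in null 1, null 2 and null 3, so it was the larger in null 1 only.

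**Figure D4:**
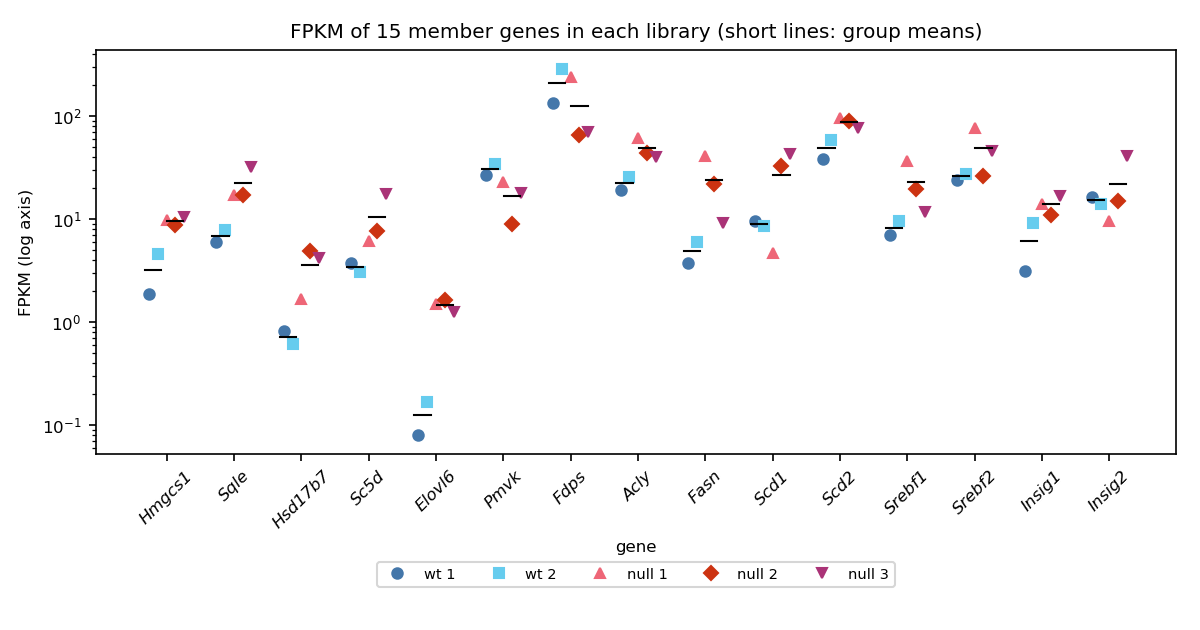
FPKM on a log axis of 15 of the listed genes, with 1 point per library and short lines at the means of the 2 wt and 3 null libraries. Elovl6 shows the widest gap between the groups, from 0.17 to 1.26, while null 1 lies apart from null 2 and null 3 for Fdps and Scd1.

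The wt libraries differed in the TSH label alone as far as the labels go. Each side is 1 library, so there is no replicate check and no test, and the intervals below are 95% intervals of counting error only, from an exact binomial interval of the counts, since reads without molecular identifiers are not independent molecules. Of the 30 genes, 6 were at least 2-fold higher in wt 2 on log2(FPKM + 0.1), while 3.88% of all genes tested were. None was at least 2-fold lower, while 9% of all genes were. The median log2 ratio was 0.47 over the listed genes and -0.19 over all genes. In CPM the 6 ratios were 3.03 (2.76 to 3.32) for Acat2, 2.92 (2.53 to 3.37) for Insig1 and 2.52 (2.36 to 2.70) for Fdft1. They were 2.43 (2.05 to 2.88) for Hmgcs1, 2.23 (2.09 to 2.39) for Ebp and 2.17 (2.10 to 2.24) for Fdps. Elovl6 had a ratio of 2.05 with a wide interval of 1.07 to 4.08, and did not count among them because of the added 0.1.

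By role, wt 2 was higher for both entry enzymes, for all 5 enzymes from mevalonate to farnesyl diphosphate and for all 3 of squalene and lanosterol synthesis. It was higher for 4 of the 8 later enzymes, where Dhcr7 had the lowest ratio of the list at 0.661 (0.563 to 0.776). Srebf2 had a ratio of 1.14 (1.09 to 1.20) and Srebf1 one of 1.37 (1.26 to 1.49), while Scap and Insig2 were lower in wt 2, at 0.811 and 0.851. Wt 2 was higher for 4 of the 6 fatty acid enzymes. In all, 22 of the 30 genes were higher and 8 lower in wt 2 in FPKM. In TMM CPM 24 were higher and 6 lower, since Acaca and Scd1 changed sides. The TSH receptor itself was at an FPKM of 0.10 in wt 1 and 0.02 in wt 2, and the cause of the difference between these libraries was not tested. In FPKM, 4 of the 6 genes (Acat2, Fdft1, Ebp and Fdps) had at least 1 null library between wt 1 and wt 2. In TMM CPM null 2 of Insig1 (23.9) also lay between them (10.1 and 33.7). The 6 genes were picked for a wide gap between the wt libraries, which favours such values, and the share of all genes was not counted.

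**Figure D5:**
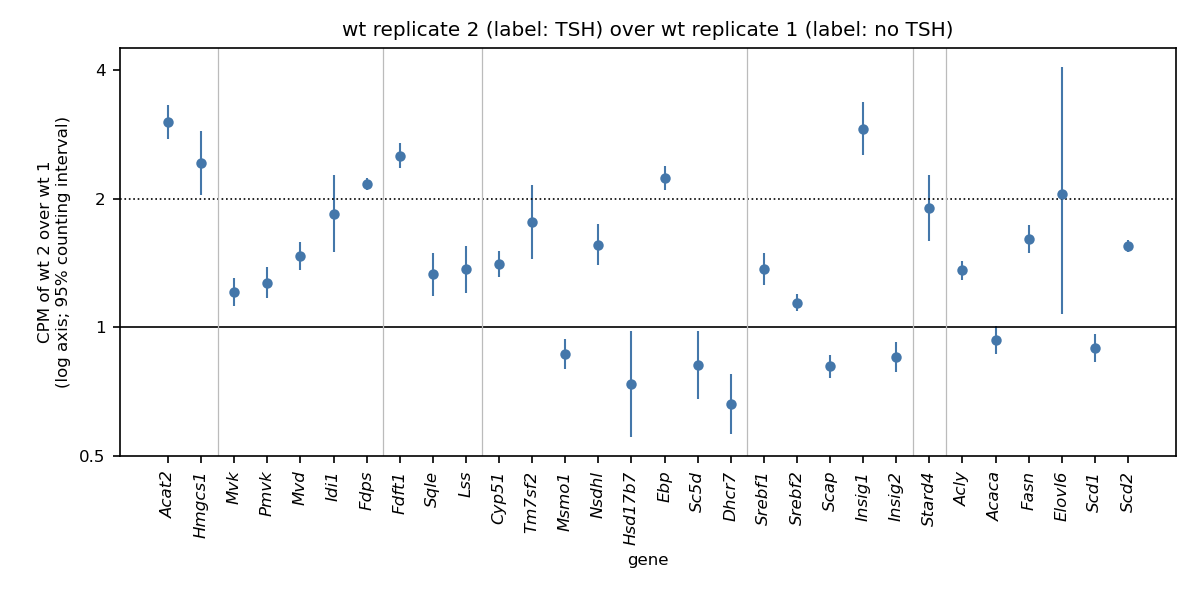
CPM of wt 2 (labelled with TSH) over CPM of wt 1 (labelled without TSH) for the 30 genes in pathway order, on a log axis, with 95% counting intervals and a dotted line at 2. Genes of the early sterol steps lie above 1, up to 3.03 for Acat2, while the later steps lie on both sides, down to 0.661 for Dhcr7.

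The null libraries differed from each other in how far the listed genes lay from wt. The listed genes took 0.126% and 0.189% of all counts in wt 1 and wt 2 and 0.318%, 0.218% and 0.224% in null 1, null 2 and null 3, so null 1 had the largest share. Their shares of the summed FPKM were 0.0629% and 0.0990% in wt 1 and wt 2. In null 1, null 2 and null 3 they were 0.174%, 0.0989% and 0.108%, so null 2 was level with wt 2. Null 1 also had the highest FPKM of 13 of the 30 genes, null 3 of 8, null 2 of 5, wt 2 of 4 and wt 1 of 0, beside 28.04%, 27.7%, 29.2%, 6.03% and 9.08% of all genes. Against the mean of the wt libraries on log2(FPKM + 0.1), null 1 was at least 2-fold higher for 14 genes (36.2% of all genes tested) and at least 2-fold lower for 0 (12% of all genes). Null 2 was higher for 11 (39.5% of all genes) and lower for 3 (10.1% of all genes). Null 3 was higher for 10 (41.9% of all genes) and lower for 1 (8.81% of all genes). The median difference of the listed genes was 0.97 in null 1, 0.60 in null 2 and 0.61 in null 3, and that of all genes tested was 0.55, 0.62 and 0.72. Of the 18 sterol enzymes alone the median was 0.78 in null 1, -0.08 in null 2 and 0.25 in null 3. The 6 fatty acid enzymes had medians of 1.32, 1.73 and 0.90. The lower sterol genes of null 2 were Mvd, Pmvk and Fdps. The spread among null libraries, as the SD over the mean of FPKM, had a median of 42.2% over the listed genes and 52.1% over all genes, and ran from 5.77% for Acat2 to 141% for Tm7sf2.

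A wider list of 76 pathway genes placed these values. Of them 75 were listed, 70 were tested and 0 passed edgeR's test, with 46 above and 24 below 0 and a median log2 fold change of 0.31. On log2(FPKM + 0.1), 55 of the 67 tested were above 0, with a median of 0.83. With the replicate number as a block 43 of the 70 were, with a median of 0.18. All 3 null libraries were above both wt libraries in both units for 15 of the 70 (22.5% of all genes) and below for 1 (7.22% of all genes). At an unadjusted p under 0.05, 6 were higher and 2 lower in null, beside 12.4% and 6.07% of all genes. DESeq2 called 2 of the 70 higher (Lrp8 and Rxra) and 1 lower (Fntb), beside 8.41% and 3.68% of all genes. The 11 genes of SREBP processing and sterol-dependent degradation had 8 above 0 and a median of 0.72. Their median was 0.41 with the replicate number as a block and 1.24 on log2(FPKM + 0.1). Among them Mbtps1, the Golgi protease of the first cut in SREBP, was abundant and overlapped between the groups, with an FPKM of 66.3 in wt 1, 53.0 in wt 2 and of 41.9, 90.7 and 66.8 in null libraries. Mbtps2, the protease of the second cut, had an FPKM of 1.45 in wt 1, 1.29 in wt 2 and of 3.41, 4.95 and 3.71 in null libraries, with no overlap (log2 fold change 0.97, SE 0.50, edgeR's adjusted p = 0.340). The ubiquitin ligases of the endoplasmic reticulum Marchf6 and Syvn1 also did not overlap, with log2 fold changes of 1.14 and 1.75.

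In the non-sterol branch, 5 genes were above and 6 below 0. Fntb, the β subunit of farnesyltransferase, had an FPKM of 24.6 in wt 1, 24.7 in wt 2 and of 14.1, 17.8 and 9.86 in null libraries, and was the 1 gene of the wider list with every null below both wt libraries (log2 fold change -1.41, SE 0.44, edgeR's adjusted p = 0.204). Nus1, a subunit of the dolichol synthase, was above in every null library (log2 fold change 1.28, SE 0.58). In uptake, storage and trafficking, 9 of 13 genes were above 0, with a median of 0.90, and 8 of 13 with a median of 0.17 with the replicate number as a block. Lrp8, a receptor of the lipoprotein receptor family, had an FPKM of 0.39 in wt 1, 0.59 in wt 2 and of 2.12, 3.71 and 2.43 in null libraries (log2 fold change 1.90, SE 0.59, edgeR's adjusted p = 0.202). Soat1, which esterifies cholesterol, and Osbp, an oxysterol binding protein, were also above in every null library, at 1.08 and 0.90. Among 9 genes of LXR and cholesterol efflux, Rxra, the partner receptor of LXR, had an FPKM of 0.83 in wt 1, 1.38 in wt 2 and of 24.1, 3.73 and 12 in null libraries (log2 fold change 3.02, SE 0.93, edgeR's adjusted p = 0.201). Null 1 was the highest, and null 2 was the lowest of the null libraries.

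Of the 22 tested genes of fatty acid supply, elongation and esterification, 16 were above 0, with a median of 0.41. With the replicate number as a block 14 were, with a median of 0.22, and the median on log2(FPKM + 0.1) was 0.74. Plin2, a coat protein of lipid droplets, was the most abundant and overlapped between the groups, with an FPKM of 221 in wt 1, 192 in wt 2 and of 195, 175 and 229 in null libraries. Slc25a1, which exports citrate from mitochondria, was at 84.7 and 117 in wt and at 153, 58.4 and 75.5 in null libraries, and it overlapped too. Of the 22 genes, 5 lay above both wt libraries in every null library, beside 22.5% of all genes tested. They were Me1 (malic enzyme), Mlxip (a glucose-responsive transcription factor), Elovl1 (an elongase of very long chains), Acsl4 (an acyl-CoA synthetase) and Gpam (a glycerol-phosphate acyltransferase). Their log2 fold changes were 0.70, 1.57, 0.72, 1.63 and 0.54, and none passed edgeR's test.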

How the data were processed

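RNA from 2 BVE-Ctnnb1wt and 3 BVE-Ctnnb1null libraries was sequenced from TruSeq libraries. The aligner, counting program and build were not given in the sources used here. The authors deposited, library by library and without pooling, an estimated count (not always whole) and an FPKM of every RefSeq transcript from an FPKM of 0.01 upward. Both were summed here per NCBI gene, and counts were rounded. A symbol was found for 17866 of 17923 genes in the RefSeq table of GRCm38.p6. Genes were compared with edgeR 4.0.16 in R 4.3.3 (TMM, filterByExpr, glmQLFit and glmQLFTest, Benjamini-Hochberg over 13240 genes, threshold 0.05). Fits were checked on simulated data with changes larger than those of nearly all listed genes, so smaller changes were not covered. Alternatives were DESeq2 1.42.0, no filter, a minimum of 10 counts per library, limma 3.58.1 on log2 FPKM plus 0.1 or 1 (FPKM of at least 0.5 in 2 libraries), a replicate block, each library left out and the libraries labelled without TSH. The listed genes, gene lists and markers were chosen with earlier results of these data known. Values in every library are given for the most abundant gene of each role, the regulators, Scd1 and Scd2, and genes whose groups did not overlap. Idi1, the only enzyme of its role above 0, and Fasn are given outside this rule, with their values known. Other pathway genes were named among the 4 most abundant of a role or where groups did not overlap. A count of 3, the limit that a count of 0 allows, was 0.0977 to 0.102 CPM, for counting error only. The estimated counts of 11 listed genes were not whole (within 0.005) in every library, and 24 genes were listed as 1 transcript.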

Additional observations from a re-analysis of the deposited data

How the results depend on the processing

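No listed gene passed the threshold under any edgeR or limma setting or with any library left out, and with DESeq2 only Elovl6 did (1 higher, 0 lower). Over all genes, 1113 were called higher and 487 lower with DESeq2, 0 and 4 without the filter, 0 and 1 with at least 10 counts in every library, 1 and 5 with limma on log2(FPKM + 0.1) and 1 and 7 with 1 added, against 0 and 0. The median of the listed genes, 0.27, was 0.79 and 0.72 with limma at 0.1 and 1, where the median of all genes was also higher, at 0.61 and 0.50. It lay between -0.073 (without null 1) and 0.49 (without wt 2) with a library left out and was -0.036 without wt 1. In the 2 libraries labelled without TSH, 1 per group and so with no test, the median log2 ratio of FPKM was 1.13. That ratio applies no TMM factors, so it is not on the scale of the edgeR medians. The median of all genes was not taken for this pair. For counts of genes without overlap, leaving out a library was an alternative chosen after seeing the data. Listed genes with every null above numbered 5 without wt 1 (30.2% of all genes) and 12 without wt 2 (28.3%). They numbered 7 without null 1 (32.5%), 7 without null 2 (30.3%) and 9 without null 3 (28.1%). Below lay 4 without wt 1 (9.94%) or null 1 (12.8%), and 1 without wt 2 (12.3%), null 2 (11.4%) or null 3 (11.4%). Without wt 2 the genes above were Acat2, Idi1, Srebf1, Insig1, Acly, Fasn and Scd2 besides the 5.

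With limma at 0.1 and 1, the log2 fold change turned positive for Acat2 (0.22 and 0.20), Fdft1 (0.64 and 0.61), Lss (0.033 and 0.027), Cyp51 (0.0055 and 0.0064), Nsdhl (0.35 and 0.33), Ebp (0.019 and 0.020), Scap (0.25 and 0.24), Insig2 (0.26 and 0.26) and Stard4 (0.13 and 0.10), and with at least 10 counts for Fdft1 (0.0060). With a library left out, the sign turned within -1.33 to 0.46 for Acat2, -0.67 to 0.85 for Fdft1, -1.22 to 1.88 for Tm7sf2, -0.23 to 0.31 for Msmo1, -0.63 to 0.21 for Nsdhl, -1.30 to 0.24 for Ebp, -0.18 to 0.48 for Dhcr7, -0.22 to 0.60 for Srebf2, -0.55 to 0.056 for Scap, -0.15 to 1.58 for Insig1, -0.90 to 0.20 for Insig2, -1.02 to 0.089 for Stard4 and -0.20 to 0.62 for Scd2. The cause was not tested. With 1 wt library left out, the other is assumed to vary like the null libraries.

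No label pairs same-numbered wt and null libraries, though replicate 1 of both groups is labelled without TSH (correlation of deviations across genes -0.088 for each pair; the wt deviations mirror each other, so the pairs are not separate observations, and null 3 has no partner). With the replicate block, 0 genes were called and the median of the listed genes was 0.19. The block gave -0.23 for Msmo1, 0.14 for Nsdhl, 0.10 for Scap and -0.085 for Scd1.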
